A study of Mus musculus with 6 samples.

Results

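The genes described here encode the Toll-like receptors, the NOD-like receptors and the sensors of foreign RNA and DNA, with the co-receptors, adaptors and kinases that carry their signals. They were chosen by name from a list of 37 genes, in which Rigi (older name Ddx58) and Sting1 (older name Tmem173) each count once. Of these, 35 had an array probe set annotated to that gene alone, and Irak4 and Ripk2 were not analysed here. The 35 genes were read among 22180 genes tested, as 24 receptors and sensors and 11 adaptors and kinases.

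Expression was measured in cultured mouse prostate epithelial cancer cells on 6 whole-transcript arrays. In the PIM1 group (3 arrays) the cells had received a lentivirus for the serine/threonine kinase PIM1, and in the EV group (3 arrays) a lentivirus with the empty vector. All cells came from Rb1F/F:Trp53F/F:PB-Cre4 mice, whose floxed Rb1 and Trp53 alleles are cut by a Cre under the probasin promoter, active in prostate epithelium; the series title gives both genes as knocked out in both groups. Both groups shared a culture medium containing insulin, pituitary extract, epidermal growth factor, cholera toxin and charcoal-treated serum. The labels state neither the age of the mice, nor the species of the PIM1 insert, nor whether the arrays of a group came from separate cultures, transductions or clones, so p-values reflect no more than the spread among the 6 arrays, and that spread may be technical. The comparison asks which of the sensing genes differ between PIM1 and EV cells. Values are log2 signals, differences are PIM1 minus EV, and a gene is called where the adjusted p of limma, a linear model fitted across all genes with Benjamini-Hochberg adjustment, is under 0.05.

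Toll-like receptors at the cell surface bind parts of the bacterial envelope, and most of those in endosomes bind nucleic acids. Most signal through the adaptor MyD88, the IRAK kinases and the ubiquitin ligase TRAF6 to NF-kappaB, while TLR3, and TLR4 after uptake, use the adaptor TRIF. NOD proteins sense fragments of bacterial cell wall in the cytosol. The RNA helicases RIG-I and MDA5 signal through MAVS, and cyclic dinucleotides made on sensing DNA signal through STING, both towards type I interferon. Epithelial cells express part of this set, and macrophages and dendritic cells express most of it.

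Signals of 18 of the 35 genes (51.4%) were higher in PIM1 cells, and 0 were lower. Over all genes tested 27.0% were called, 16.1% higher and 10.9% lower in PIM1. Of those calls 59.6% were higher, a share that was 47.0% under quantile normalization. The median difference of the 35 genes was 0.42 on the log2 scale, beside -0.05 over all genes. Under quantile normalization 13 of the 35 were called, all higher, with a median difference of 0.29, beside -0.03 over all genes. With loess scaling 14 were called, all higher, with a median difference of 0.33, beside -0.006 over all genes. The interquartile range over all genes was 4.0013 to 4.1334 on the PIM1 arrays and 3.6936 to 3.7447 on the EV arrays. The part of this wider PIM1 spread in the calls was not tested. Bright genes were called more often: with the 11090 genes of higher mean signal tested alone, 53.3% were called and 34.5% were called higher. Among these genes were 25 of the sensing genes, of which 19 were called in that test, all higher. The cut used the mean of all 6 arrays, so a gene could enter through the group where it is high. Irak3, with means of 6.34 in PIM1 and 3.31 in EV cells, is such a case. The count of 19 is therefore a description and no separate support. Receptors and sensors were called in 13 of 24 cases, with a median difference of 0.43, and adaptors and kinases in 5 of 11 cases, with a median difference of 0.22. Without PIM1 replicate 2 the receptor count was 8. Of the 18 called genes 8 differed by at least 2-fold, 3 of them (Tlr2, Irak3 and Cd14) by at least 4-fold. The 3 PIM1 arrays lay wholly above the 3 EV arrays for 19 of the 35 genes and wholly below for 1, and over all genes the groups lay apart in either direction for 43.2%.

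**Figure D1:**
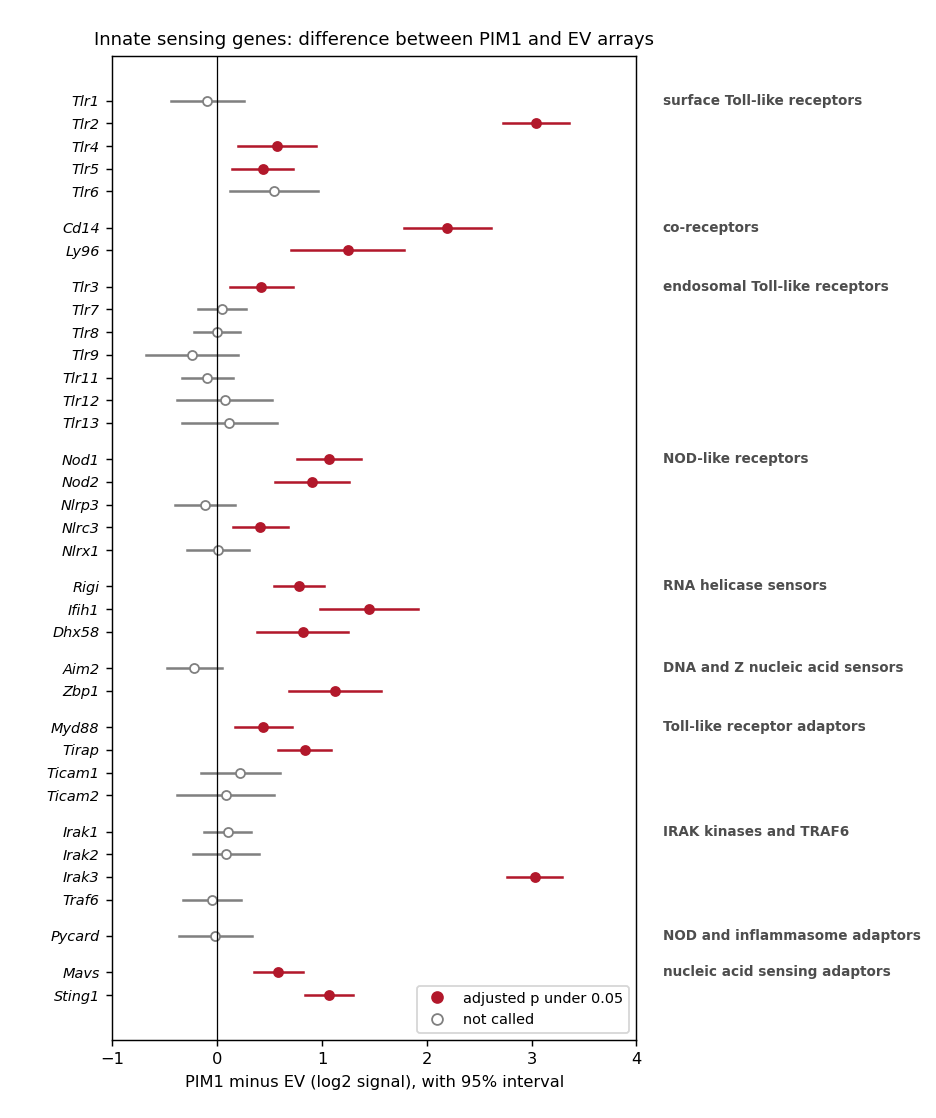
Difference of each of the 35 genes (PIM1 minus EV, log2 signal) with its 95% interval, ordered by role. Filled points have an adjusted p under 0.05, and open points were not called. The 18 filled points all lie to the right of 0, with Tlr2 and Irak3 farthest. The Irak3 point is set against EV signals at or below the olfactory receptor level, so the order of the 2 is not settled.

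The introduced gene and the cell type were checked. Pim1 signal was 7.11, 6.89 and 6.97 on the PIM1 arrays, against 5.26, 6.25 and 5.23 on the EV arrays (difference 1.41, adjusted p = 0.00455). With the probe sets of Pim1 averaged, the difference was 1.04 (adjusted p = 0.00234). The probes may not cover the introduced sequence. No detection call came with the values, so 1088 olfactory receptor genes, which are mostly silent outside the nose, served as a description of the signal of silent genes. Their 95th percentile lay between 3.13 and 3.27 on the PIM1 arrays and between 3.43 and 3.48 on the EV arrays. Probe sets differ in background, so a place above or below this level describes a probe set and does not measure expression. Of 8 epithelial markers measured, 1 (Hoxb13) rose and 2 (Krt18 and Cdh1) fell (37.5% called, beside 27.0% of all genes). Of the 8, 4 lay above the olfactory receptor level on all 6 arrays, and Krt14 and Epcam lay at or below it on all 6. Krt18 read 4.90 ± 0.12 in PIM1 and 9.14 ± 0.06 in EV cells (SD, n = 3 each). Fibroblast markers were called higher in PIM1 cells in 6 of 7 cases, beside 16.1% of all genes. The count was 5 of 7 without PIM1 replicate 2 or 3 or EV replicate 3. One of the 6, Lum, lay at or below the olfactory receptor level on all 6 arrays. The summed log2 signals of the 7 markers were 56.6 to 57.1 on the PIM1 arrays and 43.0 to 43.6 on the EV arrays. Dcn and Pdgfra had the largest differences, 5.48 and 4.70. Fibroblast markers were not confined to PIM1 cells: Col3a1, Col1a1 and Col1a2 averaged 10.0, 8.9 and 7.7 in EV cells. Pdgfra, Dcn and Thy1 averaged 6.2, 4.9 and 3.7 there. The part of the fibroblast markers in the results below was not tested. In bulk RNA, more or fewer cells of a type and more or less RNA per cell cannot be told apart.

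Among the surface receptors, Tlr2, which binds bacterial lipoproteins as a pair with TLR1 or TLR6, had, with Irak3, the largest differences of the 35 genes. The order of Tlr2 and Irak3 is not settled, because the EV signals of Irak3 lay at or below the olfactory receptor level. Tlr2 read 8.0, 8.07 and 7.99 on the PIM1 arrays, against 5.26, 4.90 and 4.78 on the EV arrays. The groups were far apart, and the PIM1 arrays differed by less than the EV arrays did among themselves. The difference was 3.04 (standard error 0.135, adjusted p = 2.8e-06), an 8.24-fold rise. Neither partner gene was called. Tlr1 read 2.37, 2.34 and 2.54 in PIM1 and 2.31, 2.38 and 2.84 in EV cells, at or below the olfactory receptor level throughout. Tlr6 read 4.69, 4.52 and 4.49 on the PIM1 arrays, against 3.72, 4.45 and 3.89 on the EV arrays. The Tlr6 groups lay apart by a narrow gap, with EV replicate 2 close to the PIM1 arrays, and the difference of 0.54 was not called (adjusted p = 0.0621). Without EV replicate 2 the Tlr6 difference was 0.76 and passed (adjusted p = 0.00424), as did the unaltered difference with a trended and robust variance (0.0492) and among the brighter genes alone (0.0321). Tlr1 and Tlr6 are neighbouring, closely related genes, and their probe sets could share signal.

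The receptor for bacterial lipopolysaccharide is built from TLR4 and the protein of Ly96, and CD14 hands the ligand to it. Cd14 read 7.53, 7.90 and 7.76 on the PIM1 arrays, against 5.27, 5.92 and 5.42 on the EV arrays. Ly96 read 7.21, 7.16 and 7.97 on the PIM1 arrays, against 5.91, 6.25 and 6.46 on the EV arrays. Both co-receptor genes rose without overlap of the groups, Cd14 by 2.20 (standard error 0.180, adjusted p = 6.85e-05), a 4.58-fold difference, and Ly96 by 1.24 (standard error 0.233, adjusted p = 0.00537), with PIM1 replicate 3 the highest. Tlr4 itself read 5.76, 5.89 and 6.23 on the PIM1 arrays, against 5.14, 5.59 and 5.43 on the EV arrays. Its difference of 0.57 was called (adjusted p = 0.0316), but the groups lay close together. Tlr4 missed the threshold under quantile normalization (adjusted p = 0.14) and loess scaling (0.0713), and without PIM1 replicate 2 or 3 (0.0733 and 0.0961) or EV replicate 1 or 3 (0.0833 and 0.0573).

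Tlr5, the flagellin receptor gene, read 4.55, 4.75 and 4.88 on the PIM1 arrays, against 4.41, 4.13 and 4.34 on the EV arrays. Its difference of 0.44 was called (adjusted p = 0.0353) with a gap between the groups smaller than the spread within either. Tlr5 missed the threshold under quantile normalization (adjusted p = 0.098), loess scaling (0.0657) and the replicate number as a block (0.0602), and without PIM1 replicate 2 or 3 (0.106 and 0.107) or EV replicate 2 or 3 (0.0957 and 0.06).

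Cd14 and Tlr2 are strongly expressed by macrophages, so the leukocyte markers stand beside them. Of 11 macrophage and leukocyte markers measured 0 were higher and 2 (Csf1r and Ly6g) were lower in PIM1 cells. The share called was 18.2%, beside 27.0% over all genes, of which 10.9% were lower and 16.1% higher. The summed log2 signal of the 11 markers was 30.6 to 32.9 on the PIM1 arrays and 37.6 to 38.2 on the EV arrays. Ly6g, Csf1r and Lyz2 had the largest differences (-2.14, -1.35 and -0.955), and Lyz2 was not called. The sum thus rests largely on these genes and does not show a fall across the list. Ptprc, Adgre1, Itgam, Fcgr1 and Tyrobp lay at or below the olfactory receptor level on all 6 arrays. Cd68, Csf1r and Fcer1g lay above it on all 6, and Ly6g, Cd3e and Lyz2 on some arrays. Dendritic cell markers were higher in 0 of 5 cases and lower in 1 (Siglech), a share of 20.0% called. Siglech lay at or below the olfactory receptor level on all 6 arrays. The count was 0 of 5 without PIM1 replicate 1 and under either quantile normalization or loess scaling. Of 4 endothelial markers 0 were called, beside 27.0% of all genes.

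**Figure D2:**
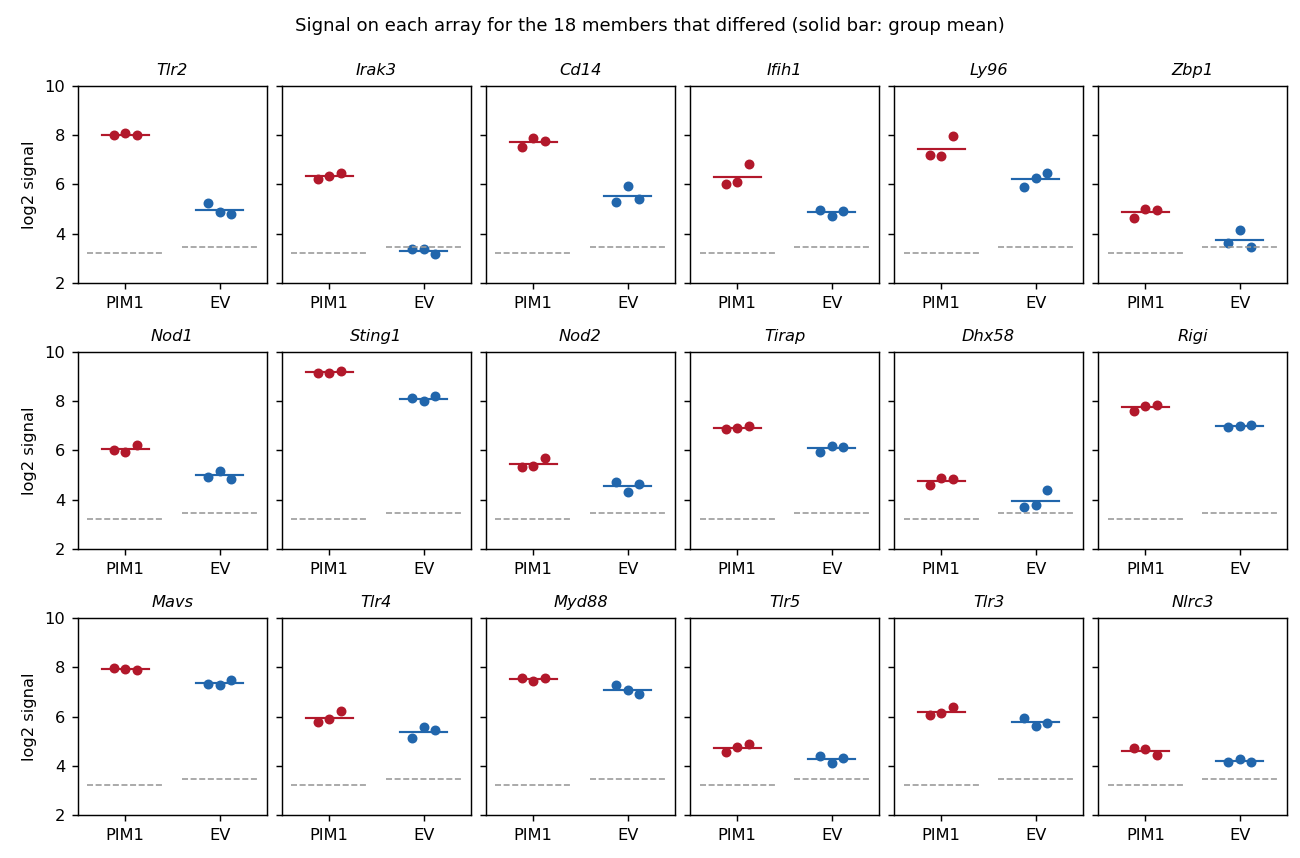
Log2 signal on each array for the 18 genes that were called, in order of the difference, with PIM1 on the left and EV on the right of each panel. Short solid bars are group means, and dashed lines are the mean over a group's arrays of the 95th percentile of 1088 olfactory receptor genes. In every panel the PIM1 points lie above the EV points, and the EV points of Irak3 lie at the dashed line.

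Of the 7 endosomal receptor genes, 1 rose and 0 fell, with a median difference of 0.05. Tlr3, the receptor gene for double-stranded RNA, was the one called, with 6.06, 6.13 and 6.39 on the PIM1 arrays, against 5.94, 5.62 and 5.75 on the EV arrays. The difference was 0.42 (adjusted p = 0.045), the largest adjusted p among the 18 called genes, and the groups were separated by a narrow gap. Tlr3 missed the threshold under quantile normalization (adjusted p = 0.341), loess scaling (0.15) and the replicate block (0.0681), and without any 1 of PIM1 replicates 1, 2 and 3 (0.0653, 0.0921 and 0.127) or EV replicates 2 and 3 (0.118 and 0.0936).

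Tlr7, Tlr8, Tlr11 and Tlr13 lay at or below the olfactory receptor level on all 6 arrays. Tlr7, which senses single-stranded RNA, differed by 0.05 (95% interval -0.18 to 0.28). Its neighbour Tlr8 averaged 1.81 ± 0.07 in PIM1 and 1.81 ± 0.05 in EV cells (SD, n = 3 each). Tlr11 and Tlr13, which in mice sense a protozoan profilin and bacterial ribosomal RNA, differed by -0.10 and 0.12. Tlr9, the receptor gene for unmethylated CpG DNA, read 3.48, 3.34 and 3.00 on the PIM1 arrays, against 3.89, 3.26 and 3.39 on the EV arrays, with overlapping groups (difference -0.24, adjusted p = 0.393). Tlr12, the partner of TLR11, differed by 0.07 (95% interval -0.38 to 0.52).

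Of the adaptors that bind the Toll-like receptors, Tirap rose most. Tirap, which bridges MyD88 to TLR2 and TLR4, read 6.87, 6.92 and 6.99 on the PIM1 arrays, against 5.92, 6.19 and 6.16 on the EV arrays. The difference was 0.83 (standard error 0.110, adjusted p = 8.71e-04), with the groups well apart. Myd88 read 7.57, 7.46 and 7.56 on the PIM1 arrays, against 7.27, 7.09 and 6.91 on the EV arrays. Its difference of 0.44 was called (adjusted p = 0.0251) but was small. Myd88 missed the threshold under quantile normalization (adjusted p = 0.111) and loess scaling (0.0857), and without any 1 of the PIM1 replicates (0.0869, 0.0577 and 0.0724) or EV replicates 2 and 3 (0.055 and 0.0672). Neither gene of the TRIF branch was called. Ticam1, which encodes TRIF, read 5.26, 4.87 and 5.20 in PIM1 and 4.92, 4.60 and 5.13 in EV cells (difference 0.22, 95% interval -0.16 to 0.60). Ticam2, whose product bridges TRIF to TLR4, differed by 0.08 (95% interval -0.38 to 0.54), with overlapping groups.

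Irak3 stood apart from the other kinase genes. It encodes IRAK-M, a family member with little kinase activity that is known in macrophages as a brake on Toll-like receptor signalling. Irak3 read 6.21, 6.35 and 6.45 on the PIM1 arrays, against 3.39, 3.37 and 3.16 on the EV arrays. All 3 EV arrays lay at or below the olfactory receptor level and all 3 PIM1 arrays far above it. The difference was 3.03 (standard error 0.114, adjusted p = 1.27e-06, the smallest among the 35 genes). Measured against that level instead of the EV signals, the Irak3 fold was 7.33. That level is not the background of the Irak3 probe set, so this value does not bound the fold. The other genes of this group were not called. Irak1 averaged 6.81 ± 0.08 in PIM1 and 6.71 ± 0.05 in EV cells (difference 0.10, 95% interval -0.12 to 0.33), and Irak2 averaged 4.93 ± 0.20 in PIM1 and 4.84 ± 0.17 in EV cells (difference 0.08, 95% interval -0.23 to 0.40). Traf6, which builds ubiquitin chains downstream of the kinases, averaged 5.50 ± 0.19 in PIM1 and 5.54 ± 0.05 in EV cells (difference -0.05, 95% interval -0.32 to 0.23). The intervals of these 3 genes hold no change of 2-fold in either direction.

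Nod1 and Nod2, whose products sense peptidoglycan fragments, were both higher in PIM1 cells. Nod1 read 6.02, 5.92 and 6.24 on the PIM1 arrays, against 4.94, 5.18 and 4.84 on the EV arrays (difference 1.07, standard error 0.132, adjusted p = 6.23e-04). Nod2 read 5.31, 5.35 and 5.71 on the PIM1 arrays, against 4.70, 4.30 and 4.65 on the EV arrays (difference 0.90, standard error 0.153, adjusted p = 0.0033). Neither gene's groups overlapped. A second, dimmer probe set of Nod2 went the other way without being called, at 3.97, 3.83 and 3.50 on the PIM1 arrays and 3.83, 4.34 and 4.30 on the EV arrays (difference -0.39, adjusted p over all probe sets = 0.143). With the 2 probe sets averaged, the Nod2 difference was 0.26 and did not pass (adjusted p = 0.0958), so the rise rests on the brighter one.

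Nlrc3 and Nlrx1 encode NOD-like proteins that are known to dampen innate signalling. Nlrc3 read 4.71, 4.67 and 4.42 on the PIM1 arrays, against 4.16, 4.27 and 4.14 on the EV arrays. The difference of 0.41 was called (adjusted p = 0.0283). Nlrc3 did not pass after quantile normalization (adjusted p = 0.0628), nor without PIM1 replicate 1 or 2 (0.109 and 0.102) or EV replicate 1 or 3 (0.0665 and 0.0724). Nlrx1 differed by 0.01 (95% interval -0.28 to 0.30). Nlrp3 and Pycard were not called. Nlrp3, an inflammasome sensor gene, lay at or below the olfactory receptor level on all 6 arrays (difference -0.11), and Pycard, the adaptor that links such sensors to caspase-1, averaged 4.58 ± 0.27 in PIM1 and 4.60 ± 0.14 in EV cells (SD, n = 3 each).

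All 3 genes of the RNA helicase sensors were higher in PIM1 cells, and these genes are themselves known to be induced by interferon. Ifih1, which encodes MDA5, a sensor of long double-stranded RNA, read 6.01, 6.11 and 6.81 on the PIM1 arrays, against 4.95, 4.73 and 4.91 on the EV arrays. Rigi, whose product binds RNA with a terminal triphosphate, read 7.61, 7.82 and 7.85 on the PIM1 arrays, against 6.94, 6.98 and 7.03 on the EV arrays. Both sets of arrays were well apart: Ifih1 rose by 1.45 (standard error 0.202, adjusted p = 0.00121), with PIM1 replicate 3 the highest, and Rigi by 0.78 (standard error 0.105, adjusted p = 9.84e-04). Dhx58, a helicase of the same family that lacks the signalling domains and tunes the other two, read 4.60, 4.87 and 4.85 on the PIM1 arrays, against 3.68, 3.80 and 4.39 on the EV arrays. Its difference was 0.81 (adjusted p = 0.0141), with EV replicate 3 close to the PIM1 arrays. Dhx58 did not pass without PIM1 replicate 2 or 3 (adjusted p = 0.0557 and 0.0577).

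Both adaptor genes of nucleic acid sensing rose. Mavs, which encodes the mitochondrial adaptor of the RNA helicases, read 7.98, 7.95 and 7.90 on the PIM1 arrays, against 7.32, 7.26 and 7.49 on the EV arrays (difference 0.58, standard error 0.102, adjusted p = 0.0038). Sting1, the endoplasmic reticulum adaptor gene for cyclic dinucleotides, read 9.15, 9.13 and 9.23 on the PIM1 arrays, against 8.11, 7.99 and 8.20 on the EV arrays (difference 1.07, standard error 0.101, adjusted p = 1.54e-04). The groups of both genes lay apart by more than the spread within them. Zbp1, whose product binds nucleic acids in the Z form and can start necroptosis, read 4.62, 5.00 and 4.96 on the PIM1 arrays, against 3.62, 4.14 and 3.45 on the EV arrays. It rose by 1.12 (adjusted p = 0.00335), with EV replicate 3 at the olfactory receptor level. Aim2, the inflammasome sensor gene for double-stranded DNA, read 1.76, 1.73 and 1.61 on the PIM1 arrays, against 1.80, 2.09 and 1.85 on the EV arrays. It was the 1 gene of the 35 whose PIM1 arrays all lay below the EV arrays, at the signal of silent genes, and it was not called (difference -0.22, adjusted p = 0.2).

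**Figure D3:**
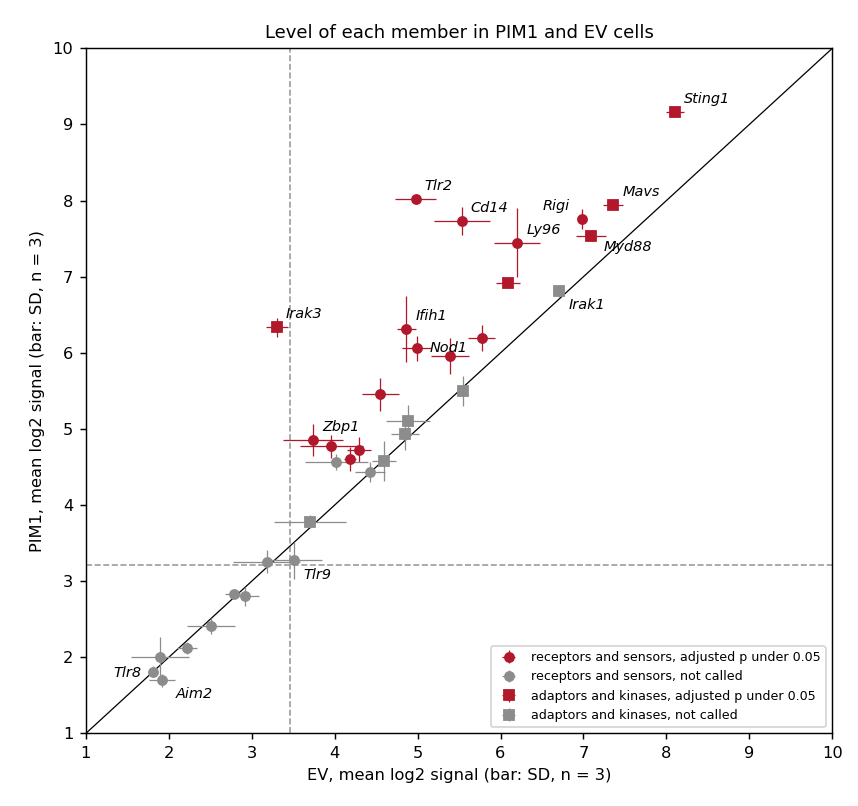
Mean log2 signal of each of the 35 genes in PIM1 cells (vertical) and EV cells (horizontal), with SD bars (n = 3 arrays each) and the line of equal signal. Dashed lines mark the mean over a group's arrays of the 95th percentile of 1088 olfactory receptor genes. Red points, with an adjusted p under 0.05, lie above the line of equal signal, and Irak3 is the red point on the left of the vertical dashed line.

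Promoter sequence was read for the genes with a window in the RefSeq table (GRCm38.p6), whose windows cover the bases before each annotated start and the first transcribed bases, and 28 of the 37 listed genes matched. The windows of Tlr2 and Irak3, the genes with the largest differences, and of Ifih1 and Rigi, the helicases of the cytosolic RNA branch, are shown 5′ to 3′ on the gene's strand. Capitals mark matches to the core of an interferon-stimulated response element (GAAANNGAA, either strand). The window of Tlr2 holds no capitals.
Tlr2 (chr3:83841559-83841858, minus strand): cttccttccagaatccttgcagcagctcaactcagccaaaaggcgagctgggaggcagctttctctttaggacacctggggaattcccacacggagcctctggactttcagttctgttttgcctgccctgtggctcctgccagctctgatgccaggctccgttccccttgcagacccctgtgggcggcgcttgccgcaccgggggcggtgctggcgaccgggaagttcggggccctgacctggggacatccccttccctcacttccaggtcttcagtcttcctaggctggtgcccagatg
Irak3 (chr10:120202081-120202380, minus strand): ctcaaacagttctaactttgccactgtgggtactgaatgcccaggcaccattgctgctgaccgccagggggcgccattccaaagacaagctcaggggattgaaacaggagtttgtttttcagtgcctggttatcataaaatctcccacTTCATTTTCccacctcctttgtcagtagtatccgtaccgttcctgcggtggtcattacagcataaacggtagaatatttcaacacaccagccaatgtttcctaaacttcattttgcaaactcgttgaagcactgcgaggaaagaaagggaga
Ifih1 (chr2:62646206-62646505, minus strand): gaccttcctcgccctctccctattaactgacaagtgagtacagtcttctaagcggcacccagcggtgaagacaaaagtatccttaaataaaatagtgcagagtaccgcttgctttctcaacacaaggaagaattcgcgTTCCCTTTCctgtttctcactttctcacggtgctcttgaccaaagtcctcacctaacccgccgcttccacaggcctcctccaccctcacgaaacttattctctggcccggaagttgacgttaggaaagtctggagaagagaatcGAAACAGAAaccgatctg
Rigi (chr4:40239776-40240075, minus strand): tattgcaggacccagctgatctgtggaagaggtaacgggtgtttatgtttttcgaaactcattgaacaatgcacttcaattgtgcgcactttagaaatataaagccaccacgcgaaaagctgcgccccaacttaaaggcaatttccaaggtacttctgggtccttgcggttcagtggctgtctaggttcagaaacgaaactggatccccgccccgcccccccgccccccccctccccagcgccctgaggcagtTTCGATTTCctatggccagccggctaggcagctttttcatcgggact

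In these windows the response element core begins at positions -112 and 33 relative to the annotated start of Ifih1, at 4 for Rigi and at -102 for Irak3. Irak3 has a second annotated start, whose window has no match. The core occurs in 8.56% of all 32851 windows. Of the 28 listed genes with a window 7 held it: 4 of 12 called genes (Ifih1, Rigi, Irak3 and Myd88) and 3 of 16 others (Tlr6, Tlr8 and Tlr11). The other 6 called genes, Tlr4, Cd14, Ly96, Dhx58, Zbp1 and Sting1, had no window in the table. A kappaB core (GGANNTTCC, either strand) occurs in 4.26% of all windows and was held by 5 of the 28: 4 of 12 called genes (Nod1, Tlr3, Tirap and Myd88) and 1 of 16 others (Nlrp3). No match of one motif overlapped a match of the other in these windows. Only these exact letters were searched, so other forms of either element were not counted, in the Tlr2 window as elsewhere. Genes with several annotated starts have more windows in which to match, and a match is a run of letters, not a measured binding site.

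Beyond the 35 genes, 63 others of the same pathways were listed, and 56 had a probe set. Of these 18 were higher and 5 lower in PIM1 cells (41.1% called, beside 27.0% of all genes), with a median difference of 0.15. Among the 11090 genes of higher mean signal tested alone, 21 of 39 of them were called, beside 53.3% of all those genes, so the share was near the background there. Without PIM1 replicate 2 the count of calls was 15 in place of 23. Among 9 accessory genes 2 rose and 1 fell (33.3% called, near the 27.0% over all genes). Lbp, whose product delivers lipopolysaccharide to CD14, read 9.45, 9.64 and 9.60 on the PIM1 arrays, against 3.17, 2.68 and 3.19 on the EV arrays, the EV values lying at or below the olfactory receptor level (adjusted p = 1.53e-07). Tril, a TLR4 accessory protein gene, rose by 0.48 (adjusted p = 0.00542). Cd36, a scavenger receptor gene, was called lower (difference -0.42, adjusted p = 0.0174), but on all 6 arrays at the signal of silent genes, and it did not pass without PIM1 replicate 2 (adjusted p = 0.0758) or under quantile normalization (0.0762) or loess scaling (0.0878). Ly86, the partner gene of Cd180, differed by -0.56 at a like low signal and was not called (adjusted p = 0.0632), though it passed without EV replicate 3 (-0.69, adjusted p = 0.0392), with the replicate block (0.0473) and with a trended and robust variance (0.0482). Without EV replicate 1 the Ly86 difference was -0.32 (adjusted p = 0.064), and under quantile normalization and loess scaling the adjusted p was 0.146 and 0.148.

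Of 16 genes for the kinases and ubiquitin steps downstream 6 rose and 1 fell (43.8% called, beside 27.0% over all genes). Ube2n, the ubiquitin-conjugating enzyme that works with TRAF6, rose by 0.67 (adjusted p = 0.00383), and Ikbkg, the regulatory subunit of the IkappaB kinase, by 0.70 (adjusted p = 0.0042). Trim25, a ubiquitin ligase that acts on RIG-I, rose by 0.79 (adjusted p = 0.00393). Tab3, a partner of the kinase TAK1, was the one that fell, by 0.50 (adjusted p = 0.0114), and it did not pass without PIM1 replicate 1 or 2 (0.053 and 0.0511). Among 10 inhibitor genes 3 rose and 0 fell, a share of 30.0% that lay near the 27.0% over all genes. Tnfaip3, which encodes the ubiquitin-editing protein A20, rose by 1.42 (adjusted p = 4.09e-04), and Nlrc5 by 1.17 (adjusted p = 3.59e-04), a gene also known for driving MHC class I expression. Trim30a, whose mouse product restrains NF-kappaB signalling, rose by 1.14 (adjusted p = 0.00612). The EV arrays of Nlrc5 and Trim30a lay at the signal of silent genes. Tollip, which binds IRAK1, differed by -0.26 and was not called (adjusted p = 0.126), but it passed under quantile normalization (-0.49, adjusted p = 0.0244) and loess scaling (-0.40, 0.0422).

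Among 12 inflammasome and cell death effector genes 4 rose and 0 fell, a share of 33.3% called that lay near the 27.0% over all genes. Casp4, the mouse caspase-11 gene, whose product senses intracellular lipopolysaccharide, read 8.58, 8.68 and 8.70 on the PIM1 arrays, against 5.99, 5.75 and 5.53 on the EV arrays. This difference of 2.90 (adjusted p = 3.06e-06) was far larger than the spread within either group. Gsdmd, the pore-forming substrate of that caspase, rose by 0.90 (adjusted p = 8.4e-04), and by 0.73 with its probe sets averaged (adjusted p = 0.015). Fadd, a death domain adaptor gene, rose by 0.41 (adjusted p = 0.0194), but did not pass without PIM1 replicate 1 or 2 or EV replicate 3 (0.06, 0.0778 and 0.056) or under quantile normalization (0.303) or loess scaling (0.093). Naip5, an inflammasome sensor gene for flagellin, was called higher (0.39, adjusted p = 0.0418) at the signal of silent genes. It did not pass without any 1 of the PIM1 replicates (0.123, 0.118 and 0.0803) or EV replicate 2 (0.0992), with the replicate block (0.0676) or with a trended and robust variance (0.0629).

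Of 4 further genes of DNA sensing 1 rose and 1 fell (50.0% called, beside 27.0% over all genes). Cgas, which makes the cyclic dinucleotide that STING binds, rose by 0.64 (adjusted p = 0.0225), but did not pass without PIM1 replicate 3 or EV replicate 2 or 3 (0.0742, 0.0574 and 0.0617). Dhx9, a nuclear helicase gene, was called lower (difference -0.33, adjusted p = 0.042). It did not pass after centring on the median or with the replicate block (0.0517 and 0.088), nor without any 1 of the PIM1 replicates (0.115, 0.147 and 0.0542) or EV replicates 1 and 2 (0.098 and 0.0967). Ifi204 and Ddx41 differed by 0.12 and 0.07 and were not called, and both differences turned negative under quantile normalization and loess scaling.

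The transcription factor genes Irf3 and Irf7, which act downstream of MAVS and STING, rose by 0.74 (adjusted p = 0.0044) and 0.82 (adjusted p = 0.00241). Neither interferon gene measured rose. Ifnb1 lay at the signal of silent genes on all 6 arrays, with 1.62, 1.54 and 1.83 in PIM1 and 1.95, 1.98 and 2.19 in EV cells. It was called lower (adjusted p = 0.0492), but passed under few other settings: not without PIM1 replicate 1 or 2 (0.144 and 0.165), without any 1 of the EV replicates (0.0597, 0.0739 and 0.129), with a trended and robust variance (0.0673), under quantile normalization (0.189), loess scaling (0.186) or median centring (0.0671), or with every probe set tested (0.0515). Ifna4, one of a family of nearly identical genes whose probe sets can share signal, read 4.70, 4.59 and 4.75 on the PIM1 arrays, against 6.06, 5.83 and 5.64 on the EV arrays (difference -1.16, adjusted p = 3.24e-04).

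The calls among the 35 genes fell into those that held and those that did not under other processing. Of the 18 called genes 11 passed in the same direction under all 14 alternatives, namely Tlr2, Cd14, Ly96, Nod1, Rigi, Ifih1, Zbp1, Tirap, Irak3, Mavs and Sting1. The other 7 were Tlr3, Tlr4, Tlr5, Nod2, Nlrc3, Dhx58 and Myd88, which lost the call under at least 1 alternative and reversed under none.

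**Figure D4:**
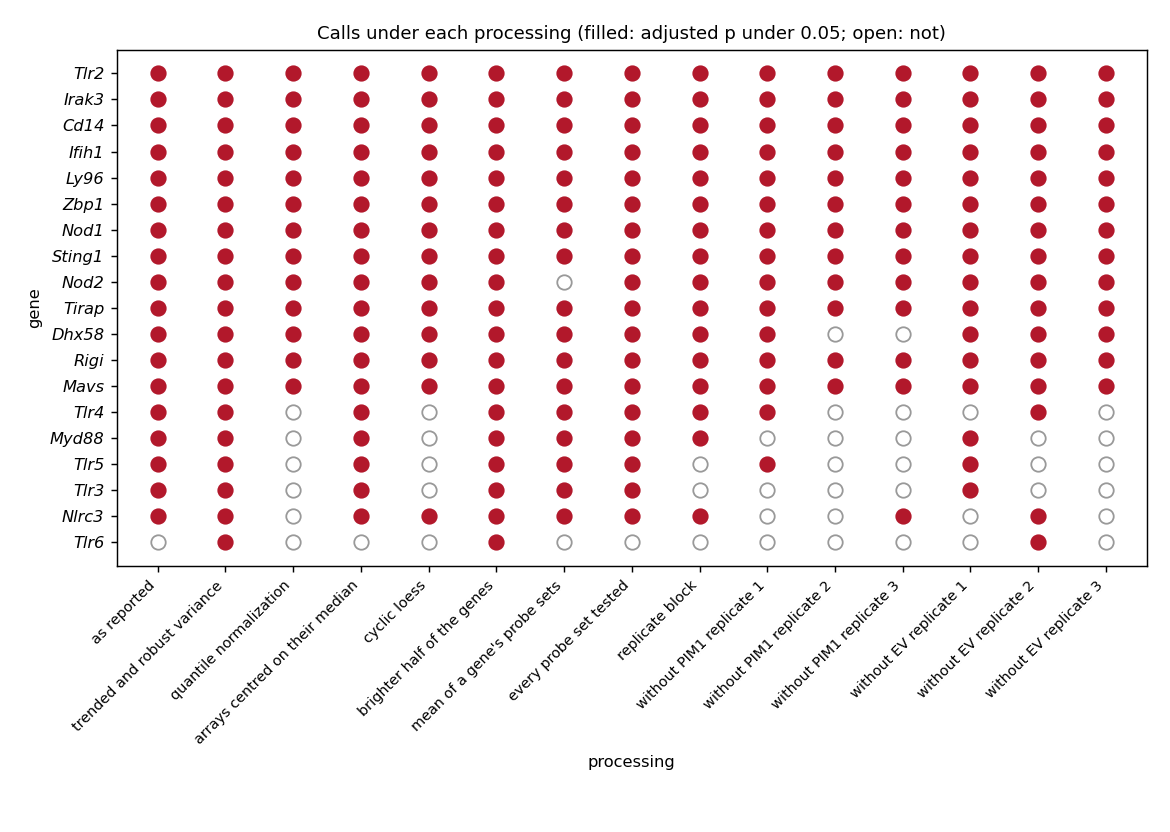
Calls for the 18 called genes and Tlr6 under the reported processing (first column) and 14 alternatives, with filled circles for an adjusted p under 0.05 and open circles for a larger one. The lines of Tlr2, Irak3, Cd14, Ifih1, Ly96, Zbp1, Nod1, Sting1, Tirap, Rigi and Mavs are filled throughout, and most open circles belong to Tlr3, Tlr4, Tlr5, Myd88, Nlrc3 and Tlr6.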

How the data were processed

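Total RNA of the 6 samples was labelled with the GeneChip WT PLUS kit, per the labels' protocols, and the submitters' processing notes name Affymetrix Expression Console without a version. The authors deposited 1 value per probe set and array, taken here as log2 signal from their range of 0.34 to 13.05, since the sources used here do not give the log base, background correction, summarization or normalization. No further scaling was applied. Of 41345 probe sets 23521 had 1 gene symbol, and where a gene had several (1082 genes) the brightest on average was kept, leaving 22180 genes. Groups came from the sample titles. PIM1 was set against EV in a limma 3.58.1 model (R 4.3.3, lmFit then eBayes, two-sided, no covariate), and p-values were adjusted by Benjamini-Hochberg across all genes, with 0.05 as the threshold. The script was tested on simulated data. The number of arrays limits the precision. Genes named are all members with a probe set and, of the other pathway genes, the 4 with the smallest p per list. The members and lists were chosen with earlier results of these data known. Alternatives were other variance, normalization, brightness filter and probe set rules, the replicate number as a block and leaving out each array, and none was added after seeing the values. The motif letters were written after the values were seen. Promoter windows are from RefSeq, assembly GRCm38.p6.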

Additional observations from a re-analysis of the deposited data

How the results depend on the processing

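Over all genes the count called, 5995, ranged from 5613 to 6574 under the alternatives with all arrays, apart from 5321 with the replicate number as a block, and from 4167 to 5369 with 1 array left out. Of the genes called 59.6% were higher in PIM1, and 47.0% after quantile normalization. Deviations of same-numbered arrays of the groups had correlations of 0.056, -0.031 and 0.0087, and those of other pairs ranged from -0.063 to 0.055. No shared shift by number was seen, but these correlations cannot show that the arrays were unpaired. With the replicate block 11 receptors and sensors, 5 adaptors and kinases and 20 other pathway genes were called, and the Pim1 difference was 1.41 (adjusted p = 0.00731). With 1 array left out the receptors called numbered 8 to 12 in place of 13, the adaptors 4 to 5 in place of 5, and the other pathway genes 15 to 19 in place of 23. The cause was not tested, beyond there being fewer samples. Differences of 12 uncalled members turned sign, none of them called under those settings. The values that follow include Ifi204 and Ddx41, which are other pathway genes and not members. After quantile normalization Tlr1 was 0.0268, Tlr8 0.1332, Tlr11 0.0384, Nlrx1 -0.0934, Irak1 -0.0842, Irak2 -0.0910, Ifi204 -0.1048 and Ddx41 -0.1284. After cyclic loess Tlr1 was 0.0321, Tlr8 0.1401, Tlr11 0.0374, Nlrx1 -0.0441, Irak1 -0.0281, Irak2 -0.0149, Ifi204 -0.0177 and Ddx41 -0.0661. After median centring Tlr8 was 0.0020. With 1 array left out Tlr1 ranged from -0.1931 to 0.0720, Tlr7 from -0.0029 to 0.1026, Tlr8 from -0.0278 to 0.0381, Tlr12 from -0.1220 to 0.2818, Tlr13 from -0.0832 to 0.2489, Nlrx1 from -0.0532 to 0.1137, Ticam2 from -0.1431 to 0.2885, Irak2 from -0.0301 to 0.1567, Traf6 from -0.1160 to 0.0636 and Pycard from -0.1629 to 0.0983. Signals near those of silent genes limit what a fall or a fold can show.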
